A study of Mus musculus with 62 samples.

Results

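The nuclear-encoded subunits of the mitochondrial respiratory chain and ATP synthase were followed in mouse hearts while melanomas that do or do not cause cachexia, the wasting of the body in cancer, were growing. The set holds 83 of the 47643 gene symbols in the deposited table. Members were chosen by name and level: symbols of the Ndufa, Ndufb, Ndufc, Ndufs and Ndufv series with a number (complex I, 37 genes), Sdha to Sdhd (complex II, 4 genes), the Uqcr genes and Cyc1 (complex III, 9 genes), the series Cox4 to Cox8 (complex IV, 16 genes) and the Atp5 genes (complex V, 17 genes), each with a mean of at least 1 TPM. TPM is a transcript's share of its library per length, scaled to a fixed total. The member nearest above that minimum was Cox6b2, with a mean of 1.78 TPM. The nearest below were Cox7b2 at 0.402 TPM and Cox8c, listed at 0, and 4 pseudogene symbols that matched by name were also listed at 0. All 83 members passed the filter of the test, at least 1 TPM in at least 5 libraries. The names do not follow function throughout: Ndufa4 was first described in complex I and is now placed in complex IV, Cox7a2l assists the assembly of supercomplexes, Atp5s and Atp5sl are not structural subunits, and the complex I gene Ndufab1 is not matched by the name rule.

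RNA was sequenced from hearts of female mice, aged 2 months in the labels, that had been injected with melanoma cells of a cachectic kind (CAC) or a non-cachectic kind (NCAC), or mock injected (Con), and hearts were taken 2, 4, 6 or 8 weeks later. The 12 groups held 5 libraries each, except CAC at week 8 with 7 and Con at week 4 with 4 after 1 library was left out. The strain is C57BL6/J by the labels and NCI Ath/nude by the series' design text, which was not resolved. CAC and NCAC hearts come from animals that carried different melanoma cells, so wasting and the identity of the cells cannot be told apart. The labels call the samples biological replicates and give no batch or date, so each p-value measures the spread between these libraries.

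Electrons from NADH enter the chain at complex I and electrons from succinate at complex II, which is also an enzyme of the tricarboxylic acid cycle. Complex III passes them from ubiquinol to cytochrome c, complex IV passes them on to oxygen, and the ATP synthase, complex V, uses the proton gradient that complexes I, III and IV build. The mitochondrial genome encodes the remaining subunits of complexes I, III, IV and V, and none of complex II. Heart and skeletal muscle use tissue-specific isoforms of some complex IV subunits: Cox6a2, Cox7a1 and Cox8b are the muscle forms, and Cox6a1, Cox7a2 and Cox8a are the forms found in most tissues.

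The regions before the start sites of the Cox7a and Cox8 isoform pairs are shown because the ratio of their isoforms differed between arms. Each is the 250 bases upstream of the RefSeq start (build GRCm38.p6), written 5′ to 3′ along the gene's strand, with every CG dinucleotide in capitals. Cox7a1 lies at chr7:30183921-30184170 on the plus strand, Cox7a2 at chr9:79759854-79760103 on the minus strand, Cox8b at chr7:140900447-140900696 on the minus strand and Cox8a at chr19:7217617-7217866 on the minus strand. The GENCODE models of Cox7a1 and Cox7a2 start inside these windows, so the last bases of both lie in those models.
Cox7a1: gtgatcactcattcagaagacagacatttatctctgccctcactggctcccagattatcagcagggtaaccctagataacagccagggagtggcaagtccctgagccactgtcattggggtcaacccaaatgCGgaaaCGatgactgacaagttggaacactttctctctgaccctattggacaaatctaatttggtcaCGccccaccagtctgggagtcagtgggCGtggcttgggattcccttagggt
Cox7a2: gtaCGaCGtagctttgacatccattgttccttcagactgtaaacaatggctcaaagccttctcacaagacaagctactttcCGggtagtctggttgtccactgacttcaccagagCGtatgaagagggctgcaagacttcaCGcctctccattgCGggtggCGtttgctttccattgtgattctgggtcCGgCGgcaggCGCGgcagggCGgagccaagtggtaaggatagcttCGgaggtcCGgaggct
Cox8b: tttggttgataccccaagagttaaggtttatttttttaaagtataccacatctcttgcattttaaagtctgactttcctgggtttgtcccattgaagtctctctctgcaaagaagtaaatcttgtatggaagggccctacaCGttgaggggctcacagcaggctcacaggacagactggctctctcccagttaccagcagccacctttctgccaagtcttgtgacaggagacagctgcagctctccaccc
Cox8a: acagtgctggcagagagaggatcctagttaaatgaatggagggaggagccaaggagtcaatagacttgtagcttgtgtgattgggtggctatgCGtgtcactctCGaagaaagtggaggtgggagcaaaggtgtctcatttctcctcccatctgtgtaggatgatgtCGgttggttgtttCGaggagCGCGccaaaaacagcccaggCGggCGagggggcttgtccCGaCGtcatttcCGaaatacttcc
The windows of the muscle forms in these pairs held fewer CG dinucleotides, with 4 for Cox7a1 and 1 for Cox8b, against 14 for Cox7a2 and 11 for Cox8a. The muscle form Cox6a2 had no promoter in the RefSeq table. Of all 27025 promoters in the RefSeq table, 44.5% held as few as Cox7a1 or fewer, 19.4% as few as Cox8b, 72.5% as few as Cox7a2 and 66.2% as few as Cox8a. The table held promoters of 65 of the 83 members, whose median was 14 CG dinucleotides against 6 over all promoters. On both strands, the letters GCGCNNGCGC, a form of the site of nuclear respiratory factor NRF1, were in 20.0% of member promoters and 5.09% of all. CCGGAAG, a form of the ETS family site, was in 16.9% of member promoters and 7.05% of all. AAGGTCA, the core of the oestrogen-related receptor site, was in 7.69% and 4.05%, GGGCGG, the SP1 box, in 33.8% and 32.9%, CCAAT in 43.1% and 34.5%, and CANNTG, the E-box, in 61.5% and 66.0%. The windows of Cox7a1 and Cox8a held CCAAT and an E-box, that of Cox8b an E-box, and that of Cox7a2 an E-box and an SP1 box. These are letter matches and not measured binding.

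Mitochondrially encoded transcripts took 49.3 to 61.1% of TPM in the 61 libraries used, and their mean share was lower in CAC hearts (51.2% at week 6 and 52.2% at week 8) than in Con hearts (59.3% and 58.3%) or NCAC hearts (57.7% and 57.2%). TPM sums to a fixed total, so a lower share of these transcripts leaves a larger one for the rest. The median difference over all 12541 tested genes between CAC and Con was 0.09 on the log2 scale at week 4, 0.21 at week 6 and 0.19 at week 8, and between CAC and NCAC it was 0.08, 0.19 and 0.24. Scaled to the total without mitochondrially encoded and haemoglobin genes, the week 8 medians were 0.03 and 0.11. Results are therefore given on the TPM scale as deposited and after median-of-ratios rescaling, which brought these medians to within 0.02 of zero, and "called" means a Benjamini-Hochberg adjusted p below 0.05 in limma on log2(TPM + 1). TPM keeps no read depth, so the depth behind each value is unknown. The left-out library, Con week 4 replicate 2, had 89.1% mitochondrially encoded TPM and 612 TPM of the heart myosin Myh6, against 3419 to 8033 TPM in the others. Con week 8 replicate 2 also stood apart, with a summed member level of 52987 TPM against 41732 to 46336 TPM in its group. Hearts are mixtures of cells, in which fewer cells of a type and less RNA per cell cannot be told apart.

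The members' summed level did not order the arms in the same way on the 2 scales. At week 6 the sum was 53779 ± 1528 TPM (SD, n = 5) in CAC, 48765 ± 823 TPM (SD, n = 5) in NCAC and 46646 ± 1946 TPM (SD, n = 5) in Con, and every CAC library (51643 to 55690 TPM) lay above every NCAC (47774 to 49625 TPM) and Con library (44660 to 49261 TPM). At week 8 the sums were 47627 ± 2355 TPM (SD, n = 7), 50369.9 ± 1998 TPM (SD, n = 5) and 45542 ± 4515 TPM (SD, n = 5), and the 3 ranges overlapped. As a share of TPM without the mitochondrially encoded genes, the members together fell on the other side: at week 8 they took 9.41 to 10.5% in CAC, with a median of 9.88%, below every NCAC library (11.0 to 12.2%) and every Con library (10.7 to 11.2%). The mean share in CAC was 11.7% at week 2, 11.4% at week 4, 11.0% at week 6 and 9.97% at week 8, while in NCAC it lay between 11.6 and 11.8% at all 4 weeks. In Con it was 12.1%, 11.6%, 11.5% and 10.9%, and Con week 2 replicate 1 stood apart at 13.7%. These sums and shares are descriptions and carry no test. CAC week 8 replicate 3 held 7.41% of its non-mitochondrial TPM in haemoglobin genes, against 0.0355 to 1.59% in the other libraries of that week. With haemoglobin genes left out of the total as well, a setting chosen after seeing the data, the members took 9.44 to 11.3% in CAC, which overlapped with 10.8 to 11.4% in Con and 11.2 to 12.2% in NCAC. Without replicate 3 that CAC range was 9.44 to 10.4%, below both.

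By complex, the week 8 share of non-mitochondrial TPM was lowest in CAC for each of the 5 complexes. Complex I, which oxidises NADH, took 2.64 to 2.97% in CAC, 3.14 to 3.47% in NCAC and 3.00 to 3.19% in Con. Complex II, succinate dehydrogenase, took 0.339 to 0.422% in CAC, 0.429 to 0.476% in NCAC and 0.439 to 0.458% in Con. The CAC range of both was apart from the other arms. Complex III, the cytochrome c reductase, took 1.18 to 1.44% in CAC and 1.43 to 1.52% in Con, which overlap at their edges, and 1.46 to 1.64% in NCAC. Complex IV, the oxidase, took 2.78 to 2.97% in CAC, 3.17 to 3.45% in NCAC and 2.99 to 3.15% in Con. The ATP synthase took 2.47 to 2.76% in CAC, 2.81 to 3.21% in NCAC and 2.77 to 2.92% in Con, again with no overlap. With haemoglobin genes left out of the total, the ranges of CAC and Con overlapped in every complex, since replicate 3 of CAC rose to 3.21%, 0.455%, 1.55%, 3.11% and 2.99% in complexes I to V. Without that library the CAC maxima were 2.98%, 0.374%, 1.38%, 3.00% and 2.71%, below the Con minima of 3.04%, 0.441%, 1.44%, 3.02% and 2.79%.

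**Figure D1:**
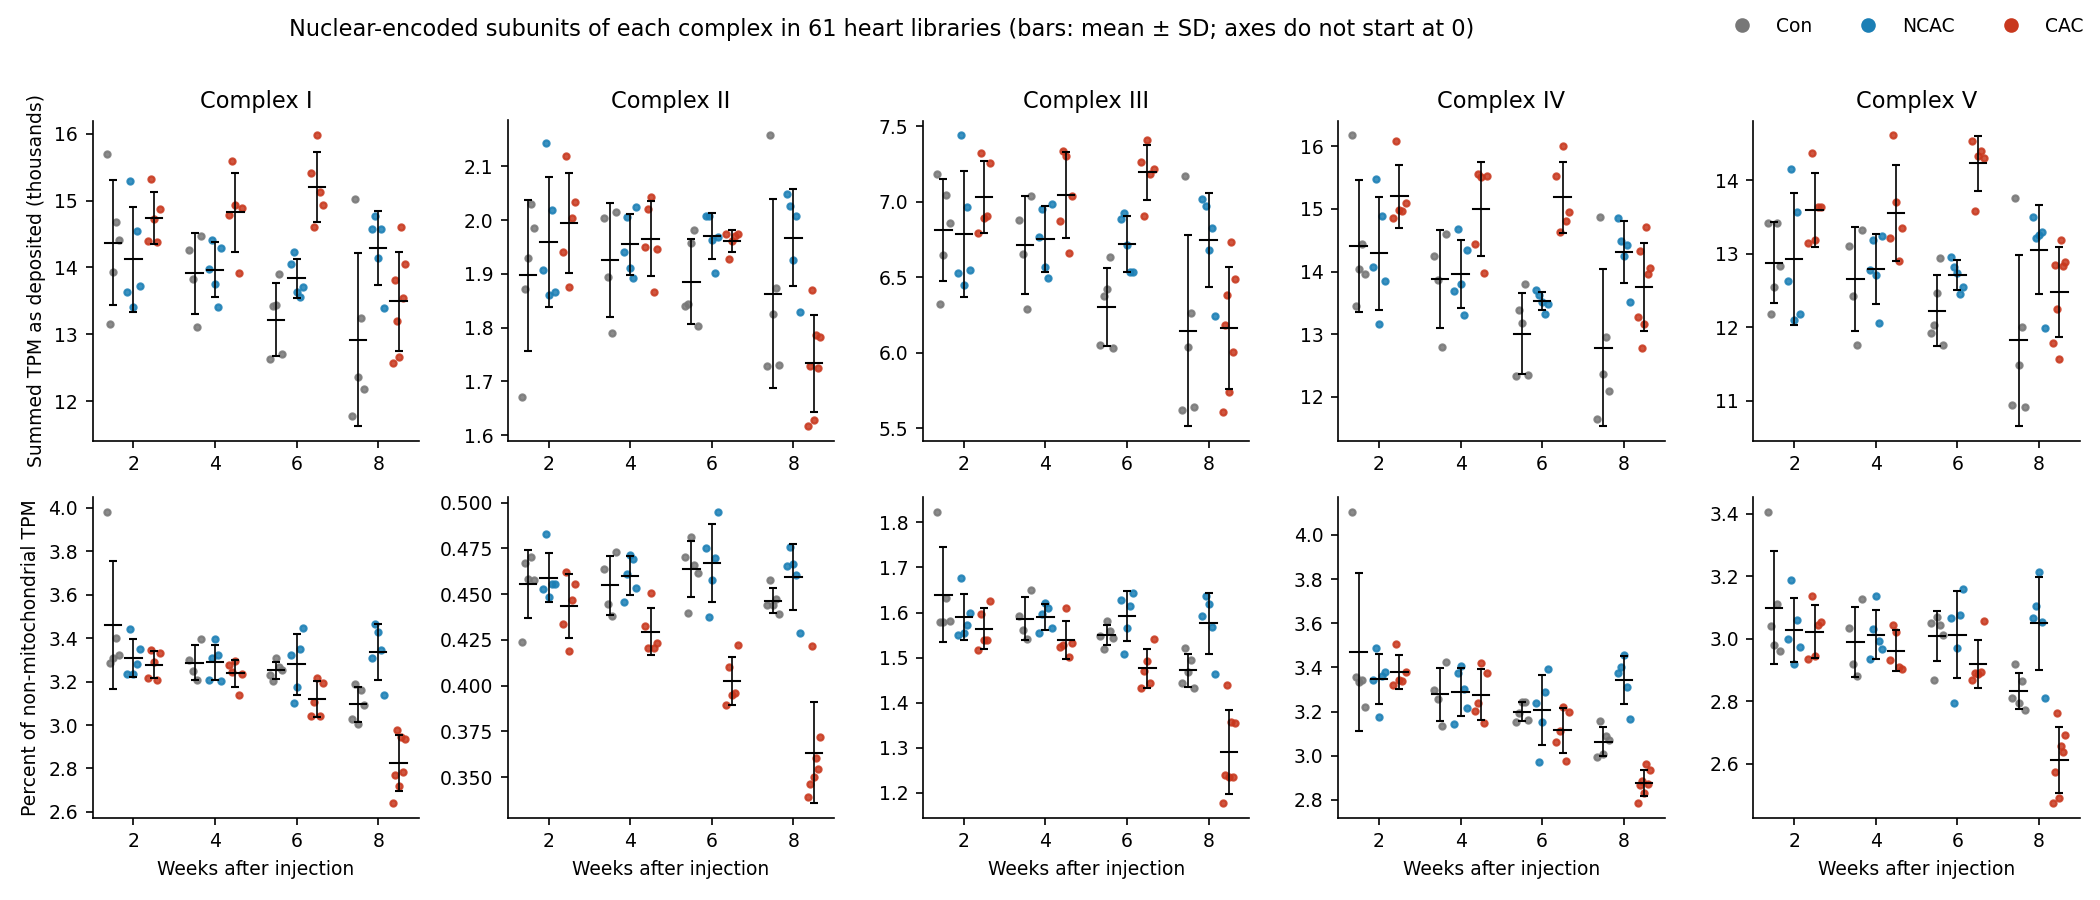
Summed level of each complex by week. The upper panels give summed TPM as deposited, in units of 1000 TPM, and the lower panels the percent of TPM without mitochondrially encoded genes; points are libraries, coloured by arm, with the mean ± SD, and the axes do not start at 0. At week 8 every CAC point lies below every Con and NCAC point in the lower panels, except in complex III, where the highest CAC point (1.44%) is just above the lowest Con point (1.43%), while in the upper panels CAC overlaps with Con. Haemoglobin genes are part of the total in the lower panels, and without them CAC overlaps with Con in each complex through 1 library.

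Against mock-injected hearts at week 8, 30 of 83 members were called higher in CAC as deposited and 12 lower, where 50.8% and 9.98% of all tested genes were called. After rescaling 1 was higher and 41 were lower, where 27% and 24.8% of all genes were called. The members' median difference was 0.07 as deposited, below the 0.19 of all genes, and -0.14 after rescaling. The 12 called lower as deposited were called lower after rescaling too, and of the 30 called higher Cox8a alone was still called higher. Scaled to the total without mitochondrially encoded and haemoglobin genes, 3 were higher (Cox6a2, Cox6c and Cox8a) and 42 lower, where 29.1% and 21.8% of genes were called. Without Con week 8 replicate 2 the counts were 42 higher and 8 lower as deposited, and 1 and 35 after rescaling, and with the compared groups alone 13 were higher as deposited. The complexes differed among themselves on the deposited scale: complex I had 11 higher and 6 lower of 37, complex II 0 and 1 of 4, complex III 2 and 2 of 9, complex IV 9 and 2 of 16, and complex V 8 and 1 of 17. After rescaling the lower calls were 21, 4, 5, 4 and 7 in that order. The median differences after rescaling were -0.18 in complex I, -0.30 in complex II, -0.19 in complex III, -0.05 in complex IV and -0.10 in complex V. No test was made between complexes.

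Within complex I, the 7 core subunits, which carry the flavin, the iron-sulphur clusters and the quinone site, had a median of -0.03 as deposited and -0.24 after rescaling, with 1 and 7 of them called lower. The other 30 members counted in complex I are accessory subunits together with Ndufa4 and Ndufa4l2. They had 11 called higher and 5 lower as deposited, and 0 and 14 after rescaling. Over all genes 50.8% were called higher and 9.98% lower as deposited, and 27% and 24.8% after rescaling. Ndufs1, the largest core subunit, was at 219 to 268 TPM in the 7 CAC libraries at week 8 with a median of 259, at 277, 326, 281, 281 and 259 TPM in Con, and at 329.7, 327, 282, 318 and 282 TPM in NCAC. All CAC libraries lay below all NCAC libraries and met the lowest Con library. Its difference from Con was -0.18 ± 0.063 (log2, SE; limma adjusted p = 0.014), and -0.39 after rescaling (limma adjusted p = 8.06e-07). Ndufv3, an accessory subunit of the NADH-oxidising module, was at 99.6 to 121 TPM in CAC with a median of 117, at 124, 158, 128, 139 and 128 TPM in Con and at 134, 138, 122, 125 and 144 TPM in NCAC. It was 1 of 3 members, with Cox7a1 and Uqcrc1, whose CAC range lay below the Con range, where 3.4% of all genes did, and no member's range lay above it, where 9.78% did. Its difference from Con was -0.25 ± 0.055 (limma adjusted p = 0.000144), and -0.46 after rescaling.

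Ndufa10, an accessory subunit of the membrane arm, was at 241 to 309.6 TPM in CAC with a median of 266, against 305, 370.0, 328, 329 and 293 TPM in Con. The ranges overlapped at their edges, and the difference was -0.28 ± 0.049 (limma adjusted p = 4.31e-06), and -0.49 after rescaling. Ndufa4l2, a paralogue of Ndufa4 known as a hypoxia-inducible gene, was at 15.8 to 25.7 TPM in CAC with a median of 21.5, against 25.3, 37.3, 31.9, 29.8 and 26.7 TPM in Con and 22.5, 23.1, 17.3, 21.2 and 29.2 TPM in NCAC. The lowest Con library was just under the highest CAC library, and CAC and NCAC overlapped. The CAC difference from Con was -0.48 ± 0.116 (limma adjusted p = 0.000427), and -0.68 after rescaling, while from NCAC it was -0.08 (limma adjusted p = 0.578), and -0.33 after rescaling (limma adjusted p = 0.00639). Ndufb9, the most abundant complex I member with a mean of 1251 TPM over all libraries, had 1174 to 1355 TPM in CAC with a median of 1308, against 1013, 1289, 1054, 1178 and 1049 TPM in Con. It was called higher as deposited, by 0.19 ± 0.050 (limma adjusted p = 0.00127), and lay at -0.02 after rescaling (limma adjusted p = 0.759), so its direction rests on the scale.

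In complex II, Sdha, the catalytic flavoprotein, was at 480.3 to 527 TPM in CAC at week 8 with a median of 498, at 547, 686, 579, 595 and 525 TPM in Con, and at 609.9, 619, 552, 604 and 565 TPM in NCAC. The highest CAC library only just met the lowest Con library, and all were below NCAC. The difference from Con was -0.22 ± 0.060 (limma adjusted p = 0.00187), and -0.43 after rescaling (limma adjusted p = 1.3e-08). Sdhb, the iron-sulphur subunit, was at 447 to 500.2 TPM in CAC with a median of 461, against 457, 587, 475, 504 and 473 TPM in Con. It was not called as deposited, and it was called lower after rescaling, at -0.29, as were the membrane anchors Sdhc at -0.31 and Sdhd at -0.21. On the deposited scale Sdha was the only complex II member called.

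In complex III, Uqcrfs1, the Rieske iron-sulphur protein, was at 526 to 693 TPM in CAC with a median of 597, at 675, 842, 741, 725 and 649.8 TPM in Con, and at 831, 827, 778, 818 and 765 TPM in NCAC. CAC overlapped with Con and lay below NCAC throughout. The difference from Con was -0.26 ± 0.052 (limma adjusted p = 2.9e-05), and -0.47 after rescaling. From NCAC it was -0.41 ± 0.052 (limma adjusted p = 2.86e-09), and -0.68 after rescaling. Uqcrc1, a core protein of the complex, was at 304 to 379 TPM in CAC with a median of 344, at 385, 487, 399, 431 and 381 TPM in Con, and at 429.7, 431, 407, 428 and 420.5 TPM in NCAC. Its CAC libraries were below every library of the other arms, with a difference from Con of -0.26 ± 0.052 (limma adjusted p = 3.03e-05), and -0.47 after rescaling. Uqcrh, the hinge protein next to cytochrome c1, moved the other way as deposited, from 607, 775, 668, 680.4 and 619 TPM in Con to 739 to 858 TPM in CAC with a median of 829. The ranges overlapped, and its difference of 0.29 ± 0.053 (limma adjusted p = 8.91e-06) was 0.07 after rescaling (limma adjusted p = 0.328). Uqcr11, the smallest subunit and the most abundant of complex III with a mean of 1067 TPM, was at 890.3 to 1069 TPM in CAC with a median of 956, at 865, 1202, 929.9, 1037 and 911 TPM in Con, and at 1103, 1074, 977, 1083 and 971 TPM in NCAC. All 3 arms overlapped, and it differed from Con by -0.03 as deposited (limma adjusted p = 0.694) and by -0.24 after rescaling (limma adjusted p = 0.000654).

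Cox7a1, the muscle form of the Cox7a subunit, had the lowest fitted difference of the 83 members at week 8, against both other arms and on both scales. Its gene lies at chr7:30184144-30186078 (GENCODE M21, plus strand). It was at 715 to 1255 TPM in CAC with a median of 970.1, at 1403, 1758, 1607, 1517 and 1563 TPM in Con, and at 1806, 1818, 1455, 1868 and 1575 TPM in NCAC. Every CAC library was below every library of the other arms. The difference from Con was -0.73 ± 0.078 (limma adjusted p = 3.69e-11), a fold of 0.603, and after rescaling it was -0.94 (limma adjusted p = 1.25e-11), a fold of 0.521. From NCAC it was -0.85 ± 0.078 (limma adjusted p = 4.12e-13), and -1.11 after rescaling. The muscle form Cox6a2 did not share this direction: it was at 2571 to 3369.6 TPM in CAC with a median of 3192, against 2257, 2902, 2189, 2595 and 2336 TPM in Con. It was called higher as deposited, by 0.34 ± 0.070 (limma adjusted p = 5.41e-05), and was 0.12 after rescaling (limma adjusted p = 0.113). Cox8a, the form found in most tissues, was at 230.0 to 327 TPM in CAC with a median of 295, against 170.5, 262, 202, 208 and 197 TPM in Con. Its difference was 0.45 ± 0.081 as deposited (limma adjusted p = 4.43e-06) and 0.24 after rescaling (limma adjusted p = 0.00234). Cox6c, a small subunit without a muscle form, had 329 to 406 TPM in CAC with a median of 379.5, against 271, 349, 282, 284 and 276 TPM in Con. Its difference was 0.35 ± 0.063 (limma adjusted p = 5.45e-06), and 0.14 after rescaling (limma adjusted p = 0.0665). Cox4i1, the main form of Cox4, was at 1203 to 1399.9 TPM in CAC with a median of 1313, inside the Con range of 1139 to 1414 TPM, and was not called as deposited, at 0.08 (limma adjusted p = 0.0981), but was called lower after rescaling, at -0.13 (limma adjusted p = 0.0272).

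In the ATP synthase, Atp5g1, 1 of the genes for the ring subunit c, was at 158 to 264 TPM in CAC with a median of 196, against 258, 322, 249, 295 and 272 TPM in Con and 245, 220.4, 249, 242 and 228 TPM in NCAC. CAC overlapped with both arms, and its highest library lay above the lowest Con libraries. The difference from Con was -0.43 ± 0.089 (limma adjusted p = 6.54e-05), and -0.64 after rescaling (limma adjusted p = 7.32e-07). The other genes for the same ring protein did not share it on the deposited scale: Atp5g2 was called higher, by 0.25 (limma adjusted p = 3.23e-05), and lay at 0.04 after rescaling, while Atp5g3 was called lower only after rescaling, at -0.22. Atp5a1, the alpha subunit of the catalytic head and the most abundant of complex V with a mean of 2325 TPM, was at 2041 to 2244 TPM in CAC with a median of 2179, at 2166, 2643, 2234, 2324 and 2115 TPM in Con, and at 2419, 2419.9, 2428, 2411 and 2223 TPM in NCAC. CAC overlapped with both arms, though only the lowest NCAC library was within its range. The difference from Con was -0.09 as deposited (limma adjusted p = 0.092) and -0.30 after rescaling (limma adjusted p = 3.22e-06). Its partner in the catalytic head, Atp5b, was also called lower only after rescaling, at -0.20, and the stalk subunit Atp5c1 was called higher only as deposited, at 0.25, and was 0.04 after rescaling.

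Against the NCAC hearts, CAC hearts at week 8 had 3 members called higher and 33 lower as deposited, where 57.4% and 8.76% of all genes were called. After rescaling 0 were higher and 78 lower, where 27.5% and 24.3% were called. The 5 members not called after rescaling were Cox6a1, Cox6a2, Cox6c, Cox8a and Ndufa11. The members' median difference was -0.09 as deposited, against 0.24 for all genes, and -0.35 after rescaling. The 3 called higher were Cox6a2, at 0.27 (limma adjusted p = 0.000821) and 0.00 after rescaling, Cox6c, at 0.15 (limma adjusted p = 0.0322) and -0.11 after rescaling, and Atp5g2, at 0.13 (limma adjusted p = 0.0255) and -0.14 after rescaling. That count was 5 without CAC week 8 replicate 1, and 1 without CAC week 8 replicate 2 or NCAC week 8 replicate 5, and 1 with the compared groups alone. Lower calls as deposited were 17 of 37 in complex I, 3 of 4 in complex II, 4 of 9 in complex III, 3 of 16 in complex IV and 6 of 17 in complex V.

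The CAC range lay below the NCAC range for 10 members at week 8, where 2.22% of all genes did, and above it for 0, where 14.8% did. The 10 were Ndufs1, Ndufv3, Ndufs5, Ndufs6 and Ndufa9 of complex I, Sdha of complex II, Uqcrfs1 and Uqcrc1 of complex III, and Cox7a1 and Cox5a of complex IV. Cox5a, a subunit of the matrix side of the oxidase, was at 1052 to 1358 TPM in CAC with a median of 1225, at 1399, 1438, 1411, 1407 and 1455 TPM in NCAC, and at 1095, 1391, 1124, 1182 and 1060.1 TPM in Con. CAC and Con overlapped and both lay below NCAC. The difference of CAC from NCAC was -0.25 ± 0.059 (limma adjusted p = 0.000261), and -0.51 after rescaling (limma adjusted p = 7.88e-09).

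**Figure D2:**
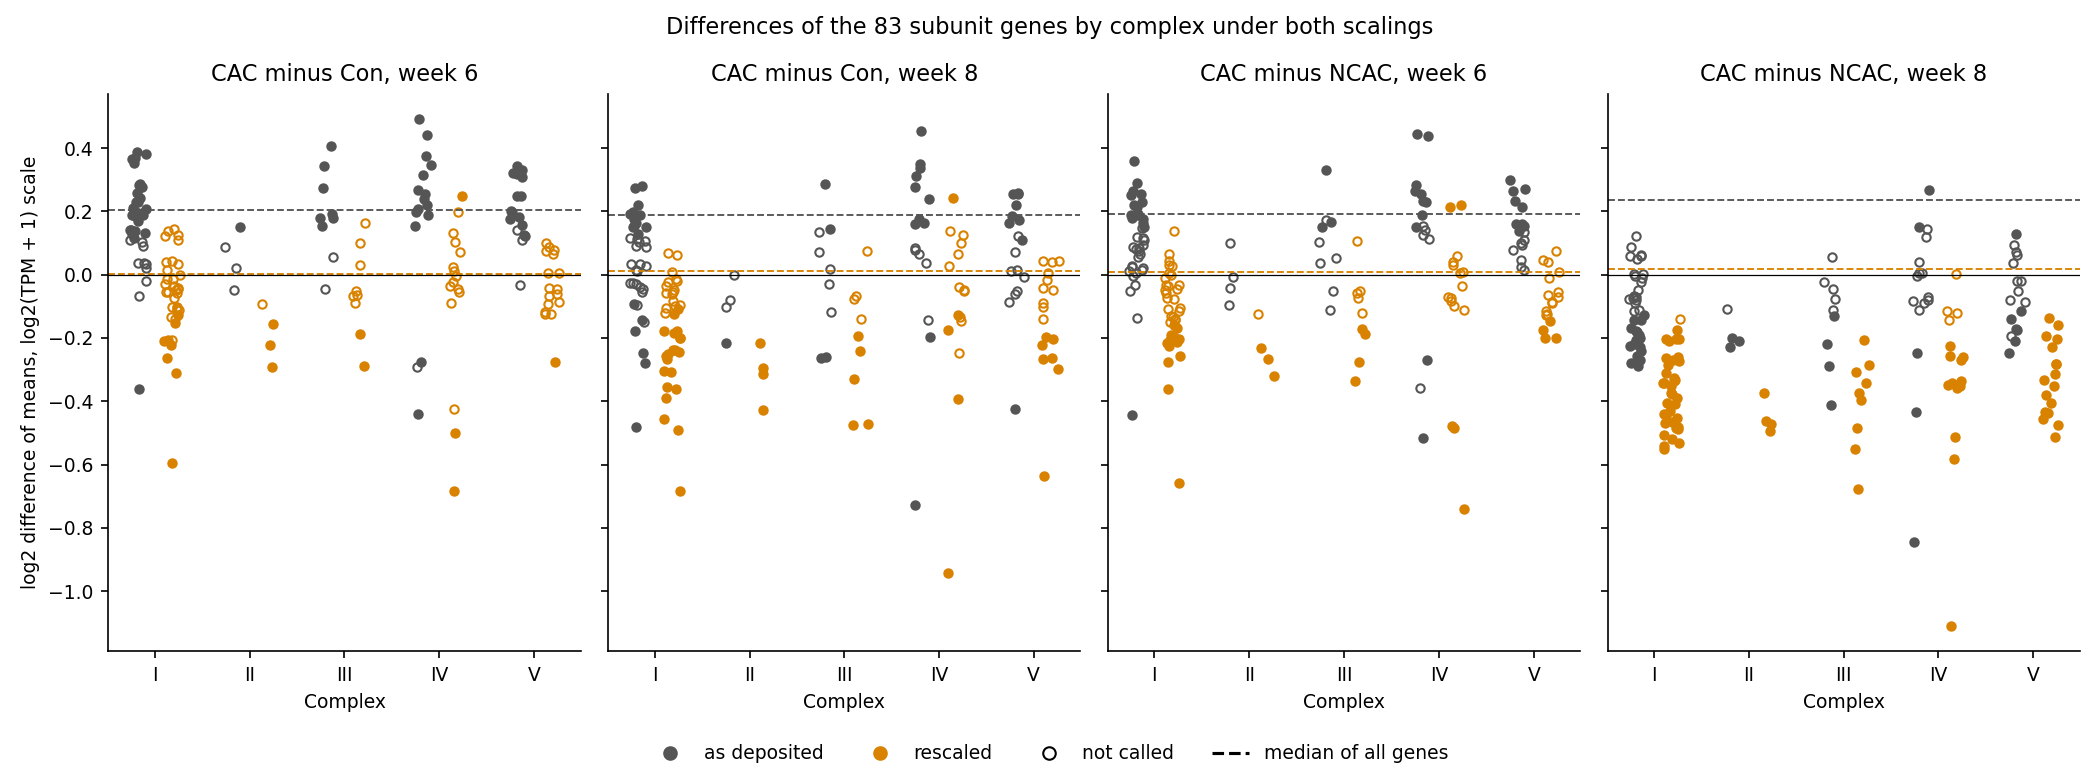
Log2 differences of the 83 members by complex, CAC minus Con and CAC minus NCAC at weeks 6 and 8. Grey points are values as deposited and orange points rescaled values, filled where limma's adjusted p is below 0.05, with a dashed line at the median of all tested genes. At week 8 the members' median against NCAC lies at -0.09 as deposited and at -0.35 after rescaling, and Cox7a1 is the lowest point.

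At week 2 no member was called between CAC and Con, where 1.83% of all genes were called higher and 0.00797% lower by limma. After rescaling none was called either, where 0.351% and 0.0478% were. At an unadjusted p below 0.05 limma gave 15 members as deposited and 9 after rescaling. Between CAC and NCAC no member was called at week 2 either, where 0.582% of genes were called higher and 0.00797% lower, or 0.51% and 0.231% after rescaling, and 6 members were below the unadjusted level as deposited and 0 after rescaling. At week 4, 9 members were called higher and 3 lower between CAC and Con, where 12.7% and 2.36% of all genes were called. After rescaling 0 were higher and 3 lower, where 8.44% and 6.96% were called. The 9 higher calls were 0 without CAC replicate 2 or Con replicate 4 of that week, 3 without Con replicate 3 and 4 without CAC replicate 3. With the compared groups alone the counts were 4 higher and 1 lower. The 3 lower calls were 1 without CAC replicate 1, 2 or 4, or Con replicate 1 or 3.

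The 4 members highest against Con at week 4 as deposited were Cox6a2, at 0.26 (limma adjusted p = 0.0204), Ndufb9 at 0.20 (limma adjusted p = 0.0128), Ndufa11 at 0.20 (limma adjusted p = 0.0428) and Atp5c1 at 0.19 (limma adjusted p = 0.026), all uncalled after rescaling at 0.08 to 0.16. The 3 members called lower at week 4 were Ndufa4l2, Cox4i2 and Cox7a1, on both scales. Cox4i2, the lung and hypoxia-responsive form of Cox4, was at 14.5, 10.1, 13.8, 13.5 and 14.1 TPM in CAC at week 4 and at 17.9, 17.0, 17.9 and 16.8 TPM in Con. Its CAC libraries were all below Con, and the difference was -0.38 (limma adjusted p = 0.00469), and -0.48 after rescaling. Ndufa4l2 differed by -0.41 (limma adjusted p = 0.0313), and by -0.51 after rescaling. Cox7a1 was at 1528, 1336, 1701, 1331 and 1679 TPM in CAC and at 1807, 1785, 1613 and 2005 TPM in Con. The ranges overlapped, and its difference of -0.25 (limma adjusted p = 0.0439), and -0.36 after rescaling, ranged from -0.31 to -0.20 as single libraries were left out, with an adjusted p of up to 0.183. Between CAC and NCAC at week 4, 8 members were called higher and 0 lower, where 13.7% and 2.84% of genes were called. After rescaling 0 were higher and 3 lower, where 9.94% and 8.04% were called. The 8 were 3 with the compared groups alone, 0 without CAC replicate 2 or NCAC replicate 4, 4 without CAC or NCAC replicate 3, and 5 without NCAC replicate 1, and the 0 became 1 without CAC replicate 3 and 2 without CAC replicate 5. After rescaling the 3 became 0 without CAC replicate 2, 5 without CAC replicate 3 and 6 without NCAC replicate 1, and the 0 became 1 without CAC replicate 5.

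Week 6 was the time with the most members called higher between CAC and Con as deposited. There 61 members were called higher and 3 lower, where 50.5% and 5.25% of all genes were called, with a members' median of 0.19 beside 0.21 for all genes. After rescaling 1 was higher and 16 lower, where 19.7% and 17.9% were called, and the median was -0.05. The 16 became 10 without CAC week 6 replicate 1, and the 1 became 2 without CAC replicate 2, Con replicate 2 or Con replicate 4. Higher calls as deposited came from every complex, 26 in complex I, 1 in complex II, 7 in complex III, 13 in complex IV and 14 in complex V. The ranges of CAC and Con were apart for 45 members with CAC above, where 36% of genes were, and for 1 with CAC below, where 3.29% were. Against NCAC at week 6, 36 members were higher and 3 lower, where 47.7% and 6.85% were called, and after rescaling 2 and 26, where 21.1% and 19.7% were called. With the compared groups alone 5 were lower as deposited. Those 2 became 1 without CAC replicate 1, 3, 4 or 5, or NCAC replicate 1, 3 or 5.

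Cox6a2, the muscle form and the most abundant member with a mean of 2654 TPM, was at 3591, 3155, 3419, 3181 and 2744 TPM in CAC at week 6, at 2132, 2322, 2159, 2589.6 and 2212 TPM in Con and at 2395, 2389.9, 2348, 2283 and 2351 TPM in NCAC. All CAC libraries were above the other arms. Its difference from Con was 0.49 ± 0.075 (limma adjusted p = 4.7e-07), and 0.25 after rescaling (limma adjusted p = 0.00485), the 1 member called higher there. Ndufb9 had 1461, 1387, 1545, 1536 and 1424 TPM in CAC and 1121, 1116, 1156, 1160.4 and 1086 TPM in Con, a difference of 0.38 (limma adjusted p = 1.13e-07). Uqcrh had 953, 867, 939.6, 919 and 927 TPM in CAC and 707, 686, 782, 770.1 and 688 TPM in Con, a difference of 0.34 (limma adjusted p = 2.18e-06). Neither Ndufb9 nor Uqcrh was called after median-of-ratios rescaling. The other named rises as deposited were in Cox6a1, Uqcrq and Ndufa2. Cox6a1, the form of Cox6a found in most tissues, went from 122, 126, 117, 129 and 109 TPM in Con to 173, 146, 177, 169 and 157 TPM in CAC, by 0.44 (limma adjusted p = 0.00011), and by 0.20 after rescaling (limma adjusted p = 0.0687). Uqcrq, a ubiquinone-binding subunit of complex III, went from 313, 398, 322, 399.9 and 333 TPM to 513, 413, 517, 443 and 454 TPM, by 0.41 (limma adjusted p = 2.62e-05), and by 0.16 after rescaling (limma adjusted p = 0.0718). In both, as in Ndufa2 of complex I at 0.39 (limma adjusted p = 1.71e-05) and 0.14 after rescaling, every CAC library was above every Con library. Cox7a1 was already low, at 1105, 1225, 1250.2, 1089 and 1357 TPM in CAC against 1512, 1696, 1728, 1656 and 1560.5 TPM in Con and 1825, 1604, 1727, 1668 and 1772 TPM in NCAC. Its CAC range was below the other arms, with a difference from Con of -0.44 ± 0.084 (limma adjusted p = 2.4e-05), and -0.68 after rescaling (limma adjusted p = 6.24e-07). The other members called lower at week 6, Ndufa4l2 at -0.36 (limma adjusted p = 0.0131) and Cox4i2 at -0.27 (limma adjusted p = 0.00914), were those of week 4. Sdha was not called as deposited, at -0.05 (limma adjusted p = 0.549), and was called lower after rescaling, at -0.29 (limma adjusted p = 0.000162).

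A ratio of 2 isoforms within a library depends on how the library is scaled only through the pseudocount of 1 TPM added to each side. The log2 ratio was compared for 6 isoform pairs in the 12 comparisons within a week, 72 exact two-sided permutation tests in all, and 14 passed after Benjamini-Hochberg adjustment. The ratio of Cox7a1 to Cox7a2 in TPM was 2.75, 2.37, 2.50, 2.31 and 2.36 in CAC at week 2, then 2.15, 1.71, 2.32, 1.99 and 2.47 at week 4 and 1.42, 1.75, 1.60, 1.45 and 1.86 at week 6. At week 8 it was 1.35, 1.11, 2.02, 1.20, 1.35, 1.27 and 1.36 in CAC, against 2.71, 2.45, 2.64, 2.69 and 2.82 in Con and 2.32, 2.46, 1.98, 2.41 and 2.33 in NCAC. CAC replicate 3 was the highest of its group by far, and it alone overlapped with NCAC, while no CAC library reached Con. The mean log2 ratio in CAC was 1.29, 1.08, 0.68 and 0.44 at weeks 2, 4, 6 and 8, against 1.43, 1.41, 1.33 and 1.41 in Con.

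The difference in that log2 ratio between CAC and Con was -0.13 at week 2 (exact permutation test, adjusted p = 0.119), -0.33 at week 4 (exact permutation test, adjusted p = 0.0635), -0.65 at week 6 (exact permutation test, adjusted p = 0.0408) and -0.97 at week 8 (exact permutation test, adjusted p = 0.0408), where the fold of the ratio was 0.511. The raw p at weeks 4, 6 and 8 was the smallest that the design can give: 0.0159 for 5 against 4 libraries, 0.00794 for 5 against 5 and 0.00253 for 7 against 5. Against NCAC the differences were -0.31, -0.67 and -0.76 at weeks 4, 6 and 8 (exact permutation tests, adjusted p = 0.0408 each). The NCAC ratio was itself below Con at week 8, by -0.21 (exact permutation test, adjusted p = 0.0635). Cox7a2, the other side of the ratio, was at 596 to 771 TPM in CAC at week 8 with a median of 746, against 518, 718, 609, 563 and 554 TPM in Con and 779, 738, 736, 776 and 675 TPM in NCAC. It was called higher than Con as deposited, by 0.24 (limma adjusted p = 0.00122), and lay at 0.03 after rescaling (limma adjusted p = 0.737). Cox7a1 therefore held the larger part of the change in the ratio on both scales.

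**Figure D3:**
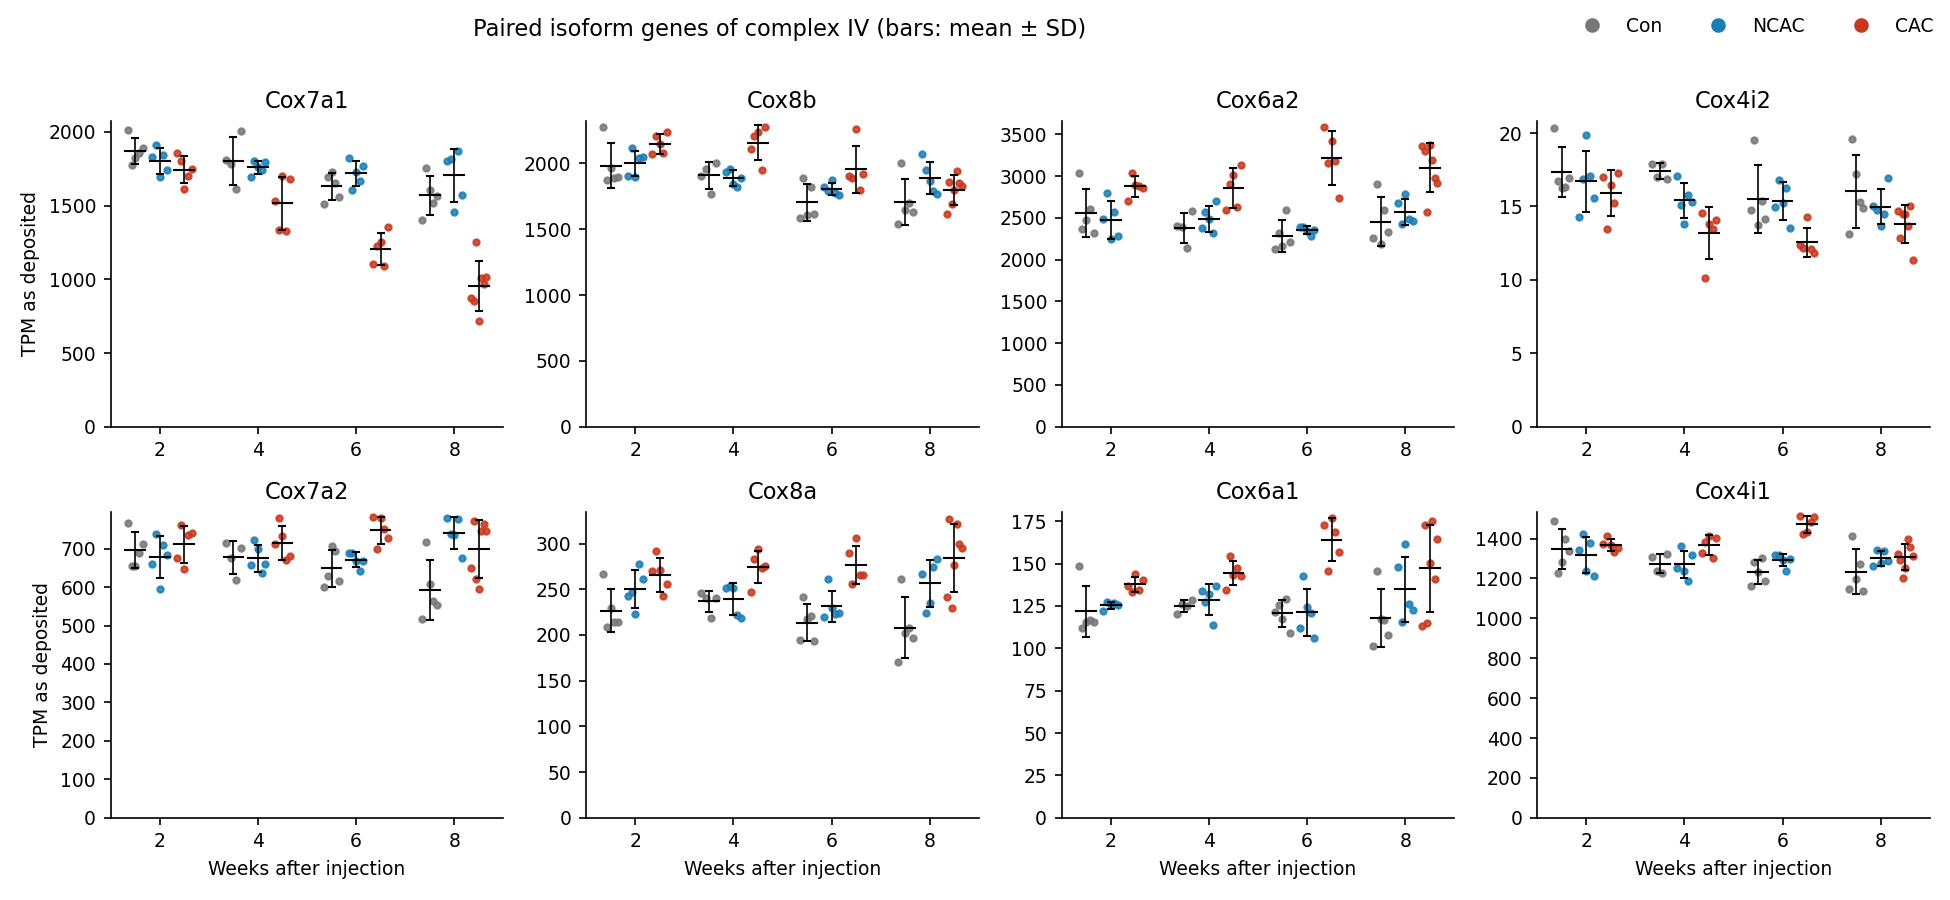
TPM of the isoform pairs Cox7a1 and Cox7a2, Cox8b and Cox8a, Cox6a2 and Cox6a1, and Cox4i2 and Cox4i1 by week, 1 point for each library, coloured by arm, with bars for the mean ± SD. Cox7a1 in CAC lies between 715 and 1255 TPM at week 8, below all Con libraries (1403 to 1758 TPM), while Cox6a2 in CAC reaches 3369.6 TPM.

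The ratio of Cox8b, the muscle form, to Cox8a was 6.68, 5.67, 7.35, 6.48, 6.04, 6.20 and 6.19 in CAC at week 8 and 9.03, 7.66, 8.15, 8.19 and 8.28 in Con, with no overlap. The log2 difference was -0.37, and -0.18 at week 6 (exact permutation tests, adjusted p = 0.0408 each), while against NCAC at week 8 it was -0.22 (exact permutation test, adjusted p = 0.124). Cox8b itself was at 1616 to 1943 TPM in CAC at week 8 with a median of 1825, against 1540.0, 2004, 1649, 1701 and 1632 TPM in Con, which overlap, a difference of 0.08 as deposited (limma adjusted p = 0.213) and -0.13 after rescaling (limma adjusted p = 0.0585). The ratio of Cox6a2 to Cox6a1 passed in no comparison. No test was made between pairs.

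The ratio of Cox4i2 to Cox4i1 differed between CAC and Con by -0.48 at week 4 (exact permutation test, adjusted p = 0.0635), -0.53 at week 6 (exact permutation test, adjusted p = 0.0408) and -0.28 at week 8 (exact permutation test, adjusted p = 0.0606). Against NCAC it differed by -0.32 at week 4 and -0.46 at week 6 (exact permutation tests, adjusted p = 0.0408 each), and by -0.12 at week 8 (exact permutation test, adjusted p = 0.378). The ratio of Ndufa4l2 to Ndufa4 differed by -0.54 at week 4 (exact permutation test, adjusted p = 0.0994), -0.56 at week 6 and -0.57 at week 8 (exact permutation tests, adjusted p = 0.0408 each). From NCAC this ratio differed by -0.62 at week 6 (exact permutation test, adjusted p = 0.0408) and by -0.01 at week 8 (exact permutation test, adjusted p = 0.976). Between NCAC and Con at week 8 it differed by -0.57 (exact permutation test, adjusted p = 0.0994). Cox6b2, the testis form of Cox6b, was low in all hearts, and its ratio to Cox6b1 differed by -0.60 at week 6 (exact permutation test, adjusted p = 0.0408). With a pseudocount of 0.1 TPM that difference was -0.78 (exact permutation test, adjusted p = 0.0635).

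**Figure D4:**
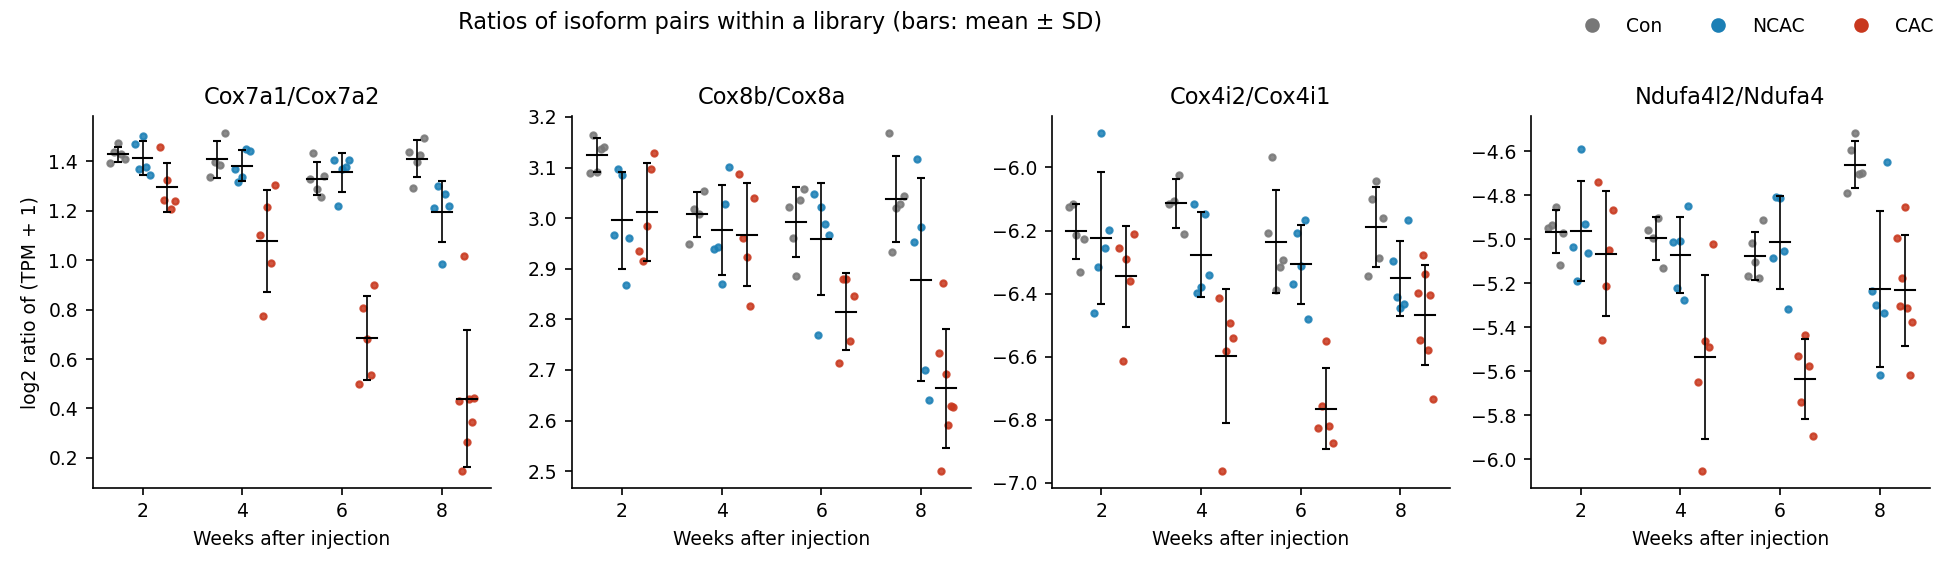
Log2 ratios of the pairs Cox7a1/Cox7a2, Cox8b/Cox8a, Cox4i2/Cox4i1 and Ndufa4l2/Ndufa4 in each library by week and arm. The mean Cox7a1/Cox7a2 value in CAC is 1.29 at week 2 and 0.44 at week 8, while in Con it is 1.43 and 1.41, and CAC week 8 replicate 3 at 1.02 lies nearest the other arms.

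Between NCAC and Con hearts members were called at week 8 only. At weeks 2, 4 and 6 limma called 0 members, where 0% of genes were called as deposited, with 0, 0 and 8 members below an unadjusted p of 0.05, and 5, 0 and 1 after rescaling. At week 8, 11 members were called higher and 0 lower, where 0.486% and 0.223% of genes were called, and after rescaling 42 and 1, where 3.91% and 1.76% were called. The members' median was 0.16 as deposited and 0.21 after rescaling, against -0.05 for all genes as deposited. The 11 were Ndufb2, Ndufa5, Ndufb4 and Ndufs6 of complex I, Uqcrh of complex III, Cox7a2, Cox5a and Cox7b of complex IV, and Atp5j2, Atp5k and Atp5g3 of complex V, and the 1 lower after rescaling was Ndufa4l2. Ndufb2, an accessory subunit, was at 44.1, 43.0, 42.3, 46.1 and 40.3 TPM in NCAC and at 30.8, 39.9, 31.2, 32.3 and 31.1 TPM in Con. The ranges were apart, and its difference was 0.38 ± 0.075 (limma adjusted p = 0.00791), and 0.43 after rescaling. Ndufa5, an accessory subunit of the matrix arm, was at 492, 495, 496, 514 and 423 TPM in NCAC and at 378, 452, 386, 401 and 384 TPM in Con. These ranges overlapped, and the difference was 0.27 (limma adjusted p = 0.00791), and 0.32 after rescaling. Cox7a2 differed by 0.33 ± 0.069 (limma adjusted p = 0.0107), and by 0.38 after rescaling, and Cox5a by 0.29 ± 0.063 (limma adjusted p = 0.0142), and by 0.34 after rescaling. Fitted on the compared groups alone, limma called 0 members higher. The count of 11 moved most with Con week 8 replicate 2, the library that stands apart, and was 44 without it. It was 5, 6, 5, 2 and 34 without NCAC replicates 1 to 5 and 2, 5 and 2 without Con replicates 1, 3 and 5. The count of 42 was 27 without NCAC replicate 2, 11 without NCAC replicate 3 and 25 without Con replicate 3, the 1 was 0 without NCAC replicate 1, 2, 3 or 4 or Con replicate 2, 3, 4 or 5, and the 0 was 1 without NCAC replicate 5.

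Within arms, CAC hearts had 47 members lower and 0 higher at week 8 than at week 2, where 10.1% and 42.6% of genes were called, and 76 lower and 0 higher after rescaling, where 22.3% and 25.3% were called. Con hearts had 17 lower and 0 higher, where 0.447% and 0.909% were called, and 39 lower and 0 higher after rescaling, where 3.44% and 2.62% were called. NCAC hearts had 0 called by limma, where 0% of genes were called, with 2 below an unadjusted p of 0.05. Cox7a1 in CAC went from 1857, 1803, 1616, 1699 and 1748 TPM at week 2 to 715 to 1255 TPM at week 8, a difference of -0.88 (limma adjusted p = 5.34e-13), and -1.04 after rescaling. In Con the members that fell included Atp5k, a small subunit of the synthase, at -0.35 (limma adjusted p = 0.00347), Atp5e at -0.34 (limma adjusted p = 0.0236) and Ndufb2 at -0.32 (limma adjusted p = 0.025), and Cox7a1 was not among the 17. Those 17 were 0 with the compared groups alone, 0 without Con week 2 replicate 1, 27 without Con week 2 replicate 2, 35 without Con week 8 replicate 2, and 7, 9, 10 and 9 without Con week 8 replicates 1, 3, 4 and 5. The 39 were 13 without Con week 2 replicate 1.

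The difference between CAC and Con was itself compared between week 8 and week 2, and 11 members passed with a lower and 4 with a higher value at week 8, where 7.45% and 19.1% of genes passed. After rescaling 19 passed with a lower and 0 with a higher value, where 14.8% and 16.6% of genes passed. Atp5g1, the ring subunit gene, had a change of -0.65 ± 0.132 (limma adjusted p = 0.000238), and -0.74 after rescaling, from mean levels of 272 TPM in CAC and 233 TPM in Con at week 2. Cox7a1 had -0.63 ± 0.114 (limma adjusted p = 5.7e-05), and -0.72 after rescaling. The others that passed with a lower value were Ndufa10, Ndufb8, Sdha, Uqcrc1, Uqcrfs1, Ndufv3, Ndufs1, Atp5a1 and Ndufa9, and those with a higher value as deposited were Cox6c, Ndufa13, Uqcrh and Cox7b. With the compared groups alone 5 passed with a lower and 0 with a higher value. The 4 higher were 2 without CAC week 2 replicate 1, CAC week 8 replicate 2 or Con week 8 replicate 5, 8 without Con week 2 replicate 2 or CAC week 8 replicate 3 or 4, 1 without Con week 8 replicate 1 and 13 without Con week 8 replicate 2. The 19 were 29 without Con week 2 replicate 1 or CAC week 8 replicate 3, and the 0 was 1 without CAC week 8 replicate 4.

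Other genes of oxidative metabolism were read from lists, in a comparison where 50.8% of all genes were called higher and 9.98% lower as deposited, and 27% and 24.8% after rescaling. Of the 13 mitochondrially encoded subunits, 10 were lower and 1 higher in CAC than in Con at week 8 as deposited, and 12 lower after rescaling, with mt-Nd1 of complex I at -0.36 (limma adjusted p = 8.6e-07). Of 18 genes of the tricarboxylic acid cycle, 12 were lower and 0 higher as deposited, with a median of -0.25, and all 18 lower after rescaling, with a median of -0.46. Dlst and Ogdh, parts of the 2-oxoglutarate dehydrogenase, were lower by limma too: Dlst differed by -0.54 (adjusted p = 2.71e-09) and Ogdh by -0.45 (adjusted p = 2.55e-07). Of 44 assembly factors tested, 8 were higher and 11 lower, and 4 and 26 after rescaling. Cox17, the copper chaperone of complex IV, was higher on both scales, at 42.6 ± 4.28 TPM (SD, n = 7) against 29.9 ± 3.43 TPM (SD, n = 5) in Con, by 0.50 (limma adjusted p = 1.98e-08) and 0.29 after rescaling (limma adjusted p = 0.000168), and Surf1, another complex IV factor, by 0.44 and 0.23. Of 23 regulators of mitochondrial biogenesis, 5 were higher and 6 lower, and 0 and 14 after rescaling. Perm1, a muscle regulator of oxidative genes, was at 97.7 ± 24.1 TPM (SD, n = 7) against 164 TPM in Con and 162 TPM in NCAC, a difference from Con of -0.77 (limma adjusted p = 1.41e-07), and -0.98 after rescaling. The mitochondrial ribosomal proteins were read in part, up to Mrpl28 and Mrps30. Of these, 4 of 22 large and 6 of 24 small subunit genes were higher and 7 and 2 lower, and 0 higher and 16 and 14 lower after rescaling.

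Markers of other cells moved with these differences. At week 8, 50.8% of all genes were called higher and 9.98% lower than in Con as deposited, and 27% and 24.8% after rescaling. All 11 macrophage markers were higher in CAC than in Con at week 8 on both scales, and their summed level was 485.6 to 985 TPM in CAC, 225 to 324 TPM in Con and 150 to 301 TPM in NCAC. All 5 neutrophil markers tested were higher than in Con, with sums of 17.7 to 46.1 TPM in CAC, 6.94 to 21.9 TPM in Con and 12.5 to 34.2 TPM in NCAC. Of 11 cardiomyocyte markers, 7 were lower and 1 higher as deposited and 9 and 1 after rescaling, and their sum was 33993 to 48331 TPM in CAC, 45832 to 56678 TPM in Con and 46930.5 to 55416 TPM in NCAC. Fibroblast markers had a summed level of 699 to 1384 TPM in CAC, above the 514 to 641 TPM of Con and the 418 to 644 TPM of NCAC, with 2 of 7 called higher and 1 lower. Most of that sum was Dcn, the matrix proteoglycan decorin, with a mean of 934 TPM in CAC and 365 TPM in Con. The sum therefore does not stand for the list, and most of the 7 were not called. Pdgfra, a receptor that marks these cells, was 1 of the 2 called higher, by 0.61 (limma adjusted p = 5.47e-06), beside the 1 called lower. Endothelial markers gave 0 higher and 2 lower of 7, pericyte markers 0 and 2 of 6, and adipocyte markers 3 and 0 of 3 tested of 6 listed. Erythroid markers gave 0 and 0 of 5, with sums of 166 to 32990.4 TPM in CAC, 1782 to 4561 TPM in Con and 1834 to 6823 TPM in NCAC. The skeletal muscle list summed to 2.14 to 3.77 TPM in CAC, 1.26 to 2.10 TPM in Con and 1.71 to 2.72 TPM in NCAC, with the myosin genes Myh1, Myh2 and Myh4 at means of 0.0088, 0.0024 and 0.015 TPM and Tnni2 highest at 0.979 TPM. The melanoma list summed to 17.3 to 23.4 TPM in CAC, 16.8 to 20.1 TPM in Con and 15.5 to 22.7 TPM in NCAC, most of it Mitf, with a mean of 13.4 TPM over all libraries, while Tyr and Tyrp1 had means of 0.00032 and 0.0064 TPM. Mlana, a melanocyte antigen, was at 0.974 to 8.78 TPM in CAC against 0.0702 to 0.282 TPM in Con and 0.0699 to 0.391 TPM in NCAC, and was called higher than Con by 2.14 (limma adjusted p = 6.77e-13), while Dct, another melanocyte gene, was called lower. The part of all these cells in the members' values was not tested.

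Across members at week 8, the difference as deposited was lower for longer transcripts. For CAC minus Con at week 8, Pearson's r between the log2 difference and log2 transcript length was -0.37 over the 82 members with lengths. Spearman's rho over these members was -0.43. The same 2 measures were -0.11 and -0.14 over 11602 tested genes and -0.16 and -0.25 over 615 genes of 100 TPM or more. These are correlations across genes of the same libraries, which are not independent replicates. The 41 longer members (742 to 2900 bases) had 7 called higher and 8 lower, and the 41 shorter (321.5 to 732 bases) had 23 and 4. Of all genes, 50.8% were called higher and 9.98% lower there. After rescaling the longer had 0 and 29, and the shorter 1 and 11, where 27% and 24.8% of all genes were called. Complex IV did not share the relation, with an r of 0.31 over 16 members, and Cox7a1, at 439 bases, is a short transcript. For NCAC minus Con the members' r was -0.41, near the -0.39 of all genes and the -0.47 of genes of 100 TPM or more. In that comparison 29 shorter and 13 longer members were called higher after rescaling, where 3.91% of all genes were. For CAC minus NCAC the members' r was -0.18 against 0.02 for all genes. At week 2 the members' r was 0.47 for NCAC minus Con, 0.17 for CAC minus Con and -0.29 for CAC minus NCAC.

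**Figure D5:**
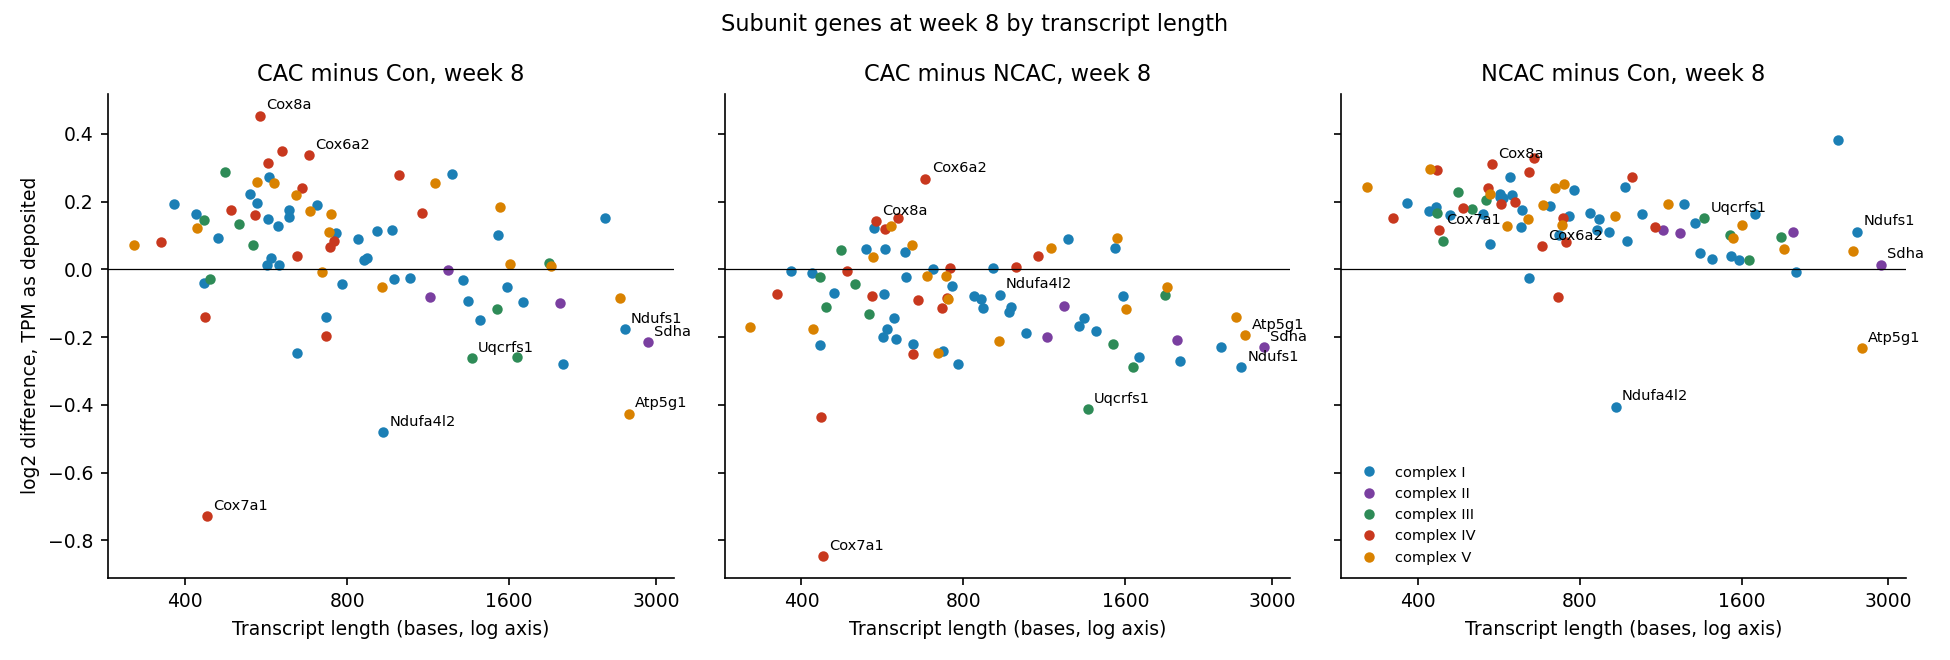
Log2 difference as deposited of each member at week 8 against its transcript length in bases, for CAC minus Con, CAC minus NCAC and NCAC minus Con, 1 point for each of 82 members. In CAC minus Con the shorter 41 members have a median of 0.15 and the longer 41 a median of 0.00, and after rescaling these medians are -0.06 and -0.21.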

How the data were processed

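Per the labels' protocols, Trizol-extracted RNA went through a stranded kit for mRNA and NovaSeq sequencing. The authors deposited TPM values for 47643 gene symbols in 62 libraries. The submitters' processing notes name the build mm10, and the aligner, counter and annotation are not given in the sources used here. TPM keeps no read depth, so no counting interval is given. No 2 libraries held identical values.

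Groups and replicate numbers came from the labels. Con week 4 replicate 2 was left out, and 61 libraries were fitted by group with limma (version 3.58.1, limma-trend, R 4.3.3) on log2(TPM + 1). Genes at 1 TPM or more in 5 libraries or more (12541) were tested, and p-values were adjusted by Benjamini-Hochberg over these genes within each of 16 comparisons, 12 of them within a week, with a threshold of 0.05. Fold changes on this scale understate changes of low genes. Rescaling used median-of-ratios factors over 10432 genes. Isoform ratios were compared with exact permutation tests (scipy 1.17.1). The script for the fit was tested on simulated data, and the permutation test on a fixed split with a known p. Lengths and positions came from GENCODE M21, which is assumed to fit the build, and promoters from RefSeq. Replicate numbers were checked as pairs: correlations of same-numbered deviations ran from -0.276 to 0.412, and in no comparison were all pairs above 0.1, so no block was used. The members and gene lists were chosen with earlier results of these data known. Named members are, in each comparison, the 4 called members that rose most and the 4 that fell most, all of them where no more than 5 were called, the most abundant of each complex, both genes of each isoform pair, and at week 8 the largest difference either way in each complex. Of other lists up to 4 genes with the smallest p were named, and other names were chosen after their values were seen. Alternatives tried were other pseudocounts, filters, scalings and weights, a replicate block, the compared groups alone, the left-out library included each library left out in turn and, added after seeing the data, shares without haemoglobin genes.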

Additional observations from a re-analysis of the deposited data

Results flagged for a closer look

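A library lay far from the others of its group in 15 of 264 group tests, where chance gives about 1 in 20. For summed TPM these were complex II in CAC week 6 replicate 2 (1927 TPM, low), complex IV in CAC week 2 replicate 2 (16078 TPM, high), and complex V in CAC week 6 replicate 2 (13581 TPM, low) and NCAC week 8 replicate 5 (11990.3 TPM, low). For the log2 ratio of Cox7a1 to Cox7a2 they were NCAC week 6 replicate 2 (1.22, low), CAC week 8 replicate 3 (1.02, high) and NCAC week 8 replicate 3 (0.98, low), so the overlap of CAC and NCAC at week 8 rests on 2 libraries that each lay far from their own group. The log2 ratio of Cox6b2 to Cox6b1 was low in CAC week 4 replicate 5 (-9.14), where Cox6b2 was at 1.61 TPM. Single genes with a far library were Cox8a in NCAC week 6 replicate 2 (261 TPM, high), Cox6c in Con week 8 replicate 2 (349 TPM, high), Cox6a1 in Con week 2 replicate 1 (149 TPM, high), Atp5g1 in NCAC week 2 replicate 5 (212 TPM, low) and CAC week 4 replicate 4 (202 TPM, low), Uqcrh in CAC week 4 replicate 2 (960.4 TPM, high) and Sdha in Con week 2 replicate 1 (410.4 TPM, low).

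Limma's test of the change of CAC minus Con from week 2 to week 8, as deposited, passed 19.1% of all genes higher and 7.45% lower. By that test the difference of CAC from Con was not the same at week 8 as at week 2 for 15 members. It was lower at week 8 for Atp5g1 (-0.65 on the log2 scale), Cox7a1 (-0.63), Ndufa10 (-0.34), Ndufb8 (-0.33), Sdha (-0.33), Uqcrc1 (-0.33), Uqcrfs1 (-0.31), Ndufv3 (-0.27), Ndufs1 (-0.26), Atp5a1 (-0.19) and Ndufa9 (-0.16). It was higher for Cox6c (0.30), Ndufa13 (0.24), Uqcrh (0.23) and Cox7b (0.23), none of which passed after rescaling.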

How the results depend on the processing

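The scale decided most counts of called members. After median-of-ratios rescaling the counts of higher and lower members were 0 and 3 (week 4) for both CAC minus Con and CAC minus NCAC, 1 and 16 (CAC minus Con) and 2 and 26 (CAC minus NCAC) at week 6, and 1 and 41, and 0 and 78, at week 8. They were 42 and 1 for NCAC minus Con at week 8, 0 and 19 for the change of CAC minus Con between weeks 2 and 8, and 76 and 39 lower members from week 2 to week 8 in CAC and Con. Scaled to the total without mitochondrial and haemoglobin genes, the counts were 0 higher (CAC minus Con) and 0 and 7 (CAC minus NCAC) at week 4, 2 and 27, and 2 and 33, at week 6, and 3 and 42, and 0 and 68, at week 8. The shares of all genes were 7.74% higher, and 8.73% and 7.55%, at week 4. They were 17% and 19.5%, and 19.6% and 19%, at week 6, and 29.1% and 21.8%, and 41.4% and 15.5%, at week 8. The members' counts were 26 and 1 for NCAC minus Con at week 8, 36 lower for Con from week 2 to week 8, and 1 and 23 for the change between weeks. In these, the shares of all genes were 1.48% and 7.62%, 1.91% lower, and 17.5% and 12.3%. In CAC minus NCAC at week 8, Cox6c (-0.11) and Atp5g2 (-0.14) reversed after rescaling, and Atp5g2 reversed with the other total (-0.020). The median of all genes in that comparison was 0.24 as deposited, 0.02 after rescaling and 0.11 with the other total. The cause of these reversals was not tested.

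For the settings that follow, the cause of a change was not tested. Without a filter, CAC minus Con at week 4 had 3 higher and 1 lower, CAC minus NCAC at week 4 had 2 higher and NCAC minus Con at week 8 had 7 higher, and with a filter of 5 TPM Con fell for 26 members from week 2 to week 8. With array quality weights the higher counts were 10 and 2 at week 2 (CAC minus Con and CAC minus NCAC), 19 for CAC minus Con at week 4, 5 for CAC minus NCAC at week 8, 55 for NCAC minus Con at week 8, 1 for CAC from week 2 to week 8 and 16 for the change between weeks, and the lower counts were 5 for CAC minus NCAC at week 6, 1 for NCAC minus Con at week 8 and 42 for Con from week 2 to week 8. With the compared groups alone, CAC minus Con at week 4 had 4 higher and 1 lower, CAC minus NCAC had 3 higher at week 4, 5 lower at week 6 and 1 higher at week 8, CAC minus Con at week 8 had 13 higher, NCAC minus Con at week 8 had 0 higher, Con had 0 lower from week 2 to week 8 and the change between weeks had 0 and 5. With the replicate number as a block, 3 members were higher in CAC minus Con at week 4, 1 in CAC minus NCAC at week 8 and 1 in the change between weeks, and the numbers share no pairing that the data show. The block moved no other count by over 1.5 times, and 60 of the named differences kept and 8 lost their call with it.

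With the left-out Con week 4 library included, CAC minus Con had 73 higher and 0 lower at week 4 and Cox7a1 reversed there (0.055), 9 and 1 at week 6, and 6 and 2 at week 8. CAC minus NCAC had 0 higher at week 4, 3 higher at week 6, and 0 and 4 at week 8, NCAC minus Con had 0 higher at week 8, CAC had 3 and Con 0 lower from week 2 to week 8, and the change between weeks had 0 and 1. In that setting 40 of the named differences lost their call.

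Leaving out single libraries as deposited gave 0 to 12 higher and 1 to 3 lower in CAC minus Con at week 4, 0 to 11 and 0 to 2 in CAC minus NCAC at week 4, 1 to 5 higher in CAC minus NCAC at week 8, 2 to 44 and 0 to 1 in NCAC minus Con at week 8, 0 to 35 lower in Con from week 2 to week 8 and 1 to 13 higher in the change between weeks. After rescaling it gave 0 to 1 and 0 to 6 in CAC minus NCAC at week 4, 1 to 2 and 10 to 19 in CAC minus Con and 1 to 2 higher in CAC minus NCAC at week 6, 1 to 2 higher in CAC minus Con at week 8, 11 to 54 and 0 to 1 in NCAC minus Con at week 8, 13 to 43 lower in Con from week 2 to week 8, and 0 to 1 and 15 to 29 in the change between weeks. Cox6a2 in CAC minus NCAC at week 8 after rescaling ranged from -0.028 to 0.073. The fall of Cox7a1 against Con at week 8 ranged from -0.80 to -0.66. The isoform ratios at weeks 4 and 6 lost their call without any 1 library, with adjusted p from 0.0601 to 0.0714, since 4 against 5 libraries cannot reach a raw p under 0.0159 in an exact permutation test, while at week 8 the Cox7a1 to Cox7a2 and Cox8b to Cox8a differences of CAC from Con stayed at 0.0408 to 0.044, and that of Cox7a1 to Cox7a2 from NCAC reached 0.0606. Leaving haemoglobin genes out of the total, chosen after seeing the data, moved each mean share of a complex at week 8 by less than 1 SD, but CAC then overlapped with Con through CAC replicate 3. A pseudocount of 0.1 TPM kept every count of called members within 1.5 times.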
